A study of Rattus norvegicus with 12 samples.

Results

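The glucocorticoid receptor gene Nr3c1 and 9 genes that glucocorticoids are known to induce (Fkbp5, Tsc22d3, Sgk1, Klf9, Klf15, Zbtb16, Cdkn1a, Cebpd and Ddit4) were followed in the left ventricle of socially defeated and unhandled rats. They were found by symbol in the deposited table. The 10 genes filled 11 of its 32735 rows, because Nr3c1 stands under 2 Ensembl IDs, and 10 of the 11 rows held enough reads to be tested among 7511 rows in all. RSD rats (n = 6) were adult wild-type Groningen rats, labelled male in 5 cases and female in 1, that met social defeat by a resident on 8 days in a row. CTR rats (n = 6) were adult males of that strain left unhandled. No allele, drug or transgene is named for either group, nor the delay between the last defeat and tissue collection. Each library came from the punched left ventricle of 1 rat, and 3' end reads were counted, so a value follows how many transcript ends were captured, whatever the length of the gene.

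Glucocorticoids released under stress enter cells and bind the receptor, which sits in the cytoplasm with Hsp90 and its cochaperones. The loaded receptor moves to the nucleus and binds DNA as a dimer at palindromic response elements, where it raises the transcription of many genes. Fkbp5, one of its targets, encodes a cochaperone that lowers hormone binding by the receptor and so closes a feedback loop. In cardiomyocytes the receptor is known for roles in contraction, metabolism and protection from hypertrophy.

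The palindromic element is easiest to see in promoters that hold it close to the gene start. RefSeq promoter windows of the rat (build GRCr8, 250 bases before to 50 after the start) were searched on both strands for the palindrome, GNACA and TGTNC with 3 bases of any kind between them, and for its arm AGAACA, which can overlap it. Of the 10 genes 8 had a window in the table, 13 windows in all since some have several starts; Zbtb16 and Cebpd had 0. The palindrome stood in 0 of these 13 windows and in 0.439% of the 33469 windows of all genes, and the arm in 0 of 13 and in 20.7% of all. The palindrome is so rare that 0 of 13 cannot set these genes apart. Bases outside the windows were not searched. Of 90 windows of the wider gene lists described further on, 9 held the arm and 2 the palindrome. The 2 with the palindrome belong to Trim63, a muscle ubiquitin ligase of the atrophy program, and Fam107a, an actin-binding protein. Both are printed without the bases after the start to show what the receptor's element looks like, with the palindrome in capitals.
Trim63, chr5:151816986-151817235, plus strand: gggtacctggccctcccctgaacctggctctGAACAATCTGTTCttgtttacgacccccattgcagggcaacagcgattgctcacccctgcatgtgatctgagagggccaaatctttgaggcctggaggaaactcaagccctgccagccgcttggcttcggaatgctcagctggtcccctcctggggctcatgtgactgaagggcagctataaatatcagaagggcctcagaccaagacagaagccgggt
Fam107a, chr15:19046331-19046580, plus strand: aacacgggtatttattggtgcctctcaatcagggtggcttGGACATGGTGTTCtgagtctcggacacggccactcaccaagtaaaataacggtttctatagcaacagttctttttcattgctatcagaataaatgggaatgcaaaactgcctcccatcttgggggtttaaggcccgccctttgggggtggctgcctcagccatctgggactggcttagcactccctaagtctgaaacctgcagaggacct
The matches are descriptions of letters in a short window. The build differs from that of the deposited table, rn6, whose coordinates are not used here.

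Libraries held 2062798 to 3731108 reads in RSD and 2578960 to 3216624 in CTR, and 1 read was worth 0.268 to 0.485 CPM, the authors' count scaled to library size. The most abundant mitochondrial row, AY172581.24, took 19.4% to 25.7% of the reads in RSD and 17.9% to 24.2% in CTR. Cardiomyocyte markers (6 of 6 with a read, Myh6 and Tnnt2 among them) summed to 36891 to 41593 normalised CPM in RSD and 36309 to 41757 in CTR, as the tissue label says. Markers of macrophages (6 of 6 with a read) summed to 47.9 to 62.3 in RSD and 59.4 to 98.9 in CTR. Those of T cells and neutrophils (5 of 6 with a read, Mpo at 0) summed to 0.854 to 9.84 in RSD and 2.74 to 26.6 in CTR. The part of these cells in the results was not tested, and in punched tissue fewer cells of a type and less RNA per cell cannot be told apart. RSD 40 carries the label female. Its values of Eif2s3y and Kdm5d, genes of the Y chromosome, were 7.36 and 10.7 CPM, where the other 11 libraries ranged over 2.49 to 11.0 and 3.39 to 12.6 CPM, so the data go against that label. Results are therefore also given without RSD 40.

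None of the 10 tested members passed adjusted p 0.05 between RSD and CTR (limma, Benjamini-Hochberg over 7511 rows), where 0.0266% of all rows did. The smallest adjusted p was 0.458, for Cdkn1a. At an unadjusted p under 0.05 there were 2 members, Cdkn1a and Sgk1, both higher in RSD, against 8.36% of all rows. DESeq2 and edgeR on the recovered reads likewise called 0 members, with 2 at an unadjusted p under 0.05 in each. The ranges of RSD and CTR overlapped for all 10 members, while 0.293% of all rows had groups that did not overlap. The members' log2 fold changes, RSD over CTR on the log2(CPM + 1) scale, ran from -0.20 (Klf9) to 0.62 (Cdkn1a), 5 above 0 and 5 below, with a median of -0.0042. Zbtb16 and Tsc22d3, the 2 nearest 0, changed sign with the scaling, filter or test. Over all rows the median was 0.0036, and 49.3% lay below 0. In the values that follow, normalised CPM is CPM divided by the library's TMM factor.

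**Figure D1:**
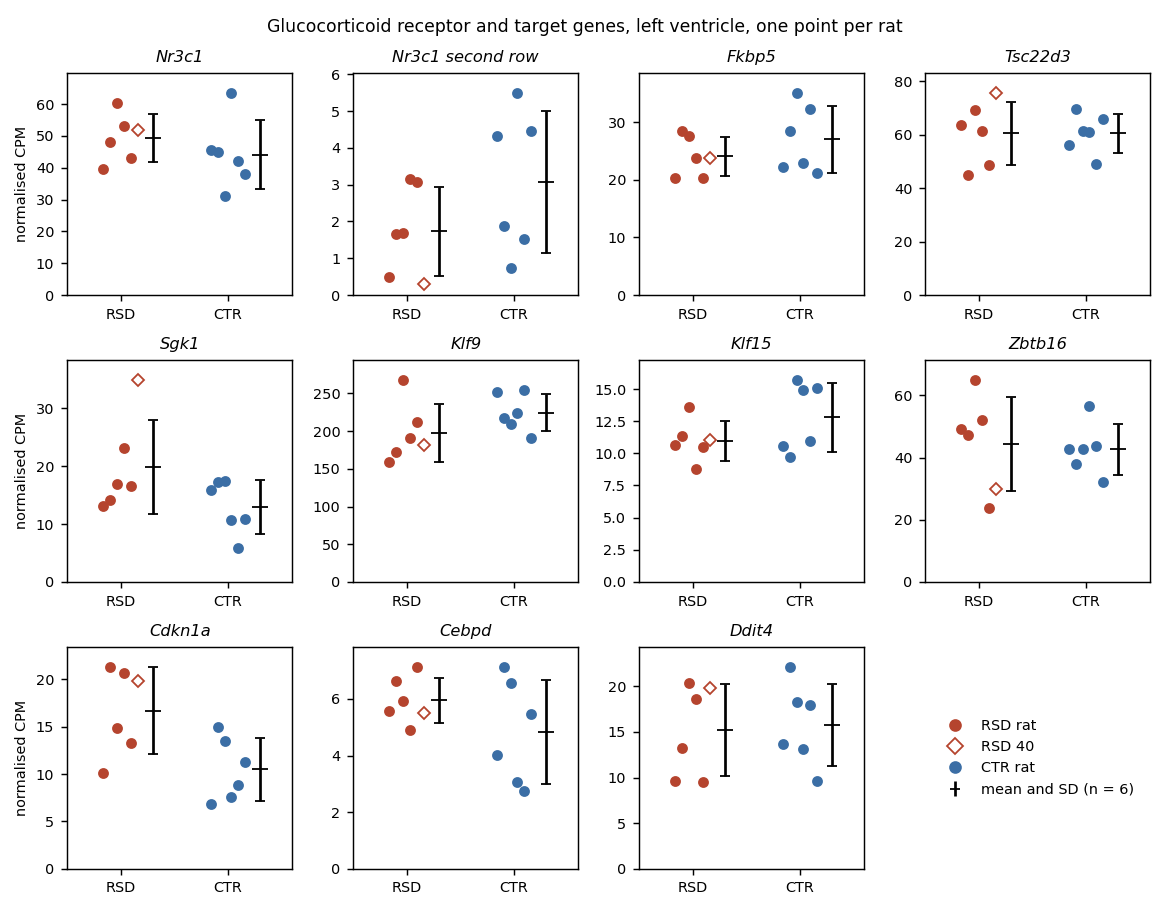
Normalised CPM (vertical axes, from 0) of each member row in the 6 RSD rats, left, and the 6 CTR rats, right. Bars give the mean and SD, and the open diamond is RSD 40. The groups overlap in every panel, and Sgk1 in RSD 40 (34.8) stands above the other RSD rats.

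The receptor came first. Nr3c1 (ENSRNOG00000014096) measured 39.5 normalised CPM in the lowest RSD rat, with a median of 50.1 and a highest value of 60.2, against a lowest of 31.0, a median of 43.5 and a highest of 63.3 in CTR. The extremes of the 12 libraries, CTR 24 and CTR 25, were both controls, and 4 of 6 RSD rats lay above the CTR median. The log2 fold change was 0.18 (SE 0.15, 95% interval -0.13 to 0.48, limma adjusted p = 0.778). On the linear scale that interval reaches from 0.914 to 1.40 times the CTR level. The second row (ENSRNOG00000048800) held 1 to 18 reads per library, too few for the fit. It measured 0.309 to 3.16 normalised CPM in RSD, with a median of 1.68, and 0.728 to 5.48 in CTR, with a median of 3.11. The difference in means was -1.33 normalised CPM, RSD minus CTR (exact two-sided permutation p = 0.167 over 924 splits), so the rows of the receptor pointed in opposite directions and neither passed its test. The labels do not say how reads were divided between these IDs.

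Fkbp5 (ENSRNOG00000022523), the cochaperone of the feedback loop, is among the genes that respond most readily to glucocorticoids in many tissues. Its lowest, median and highest values were 20.3, 23.9 and 28.5 normalised CPM in RSD, against 21.2, 25.7 and 35.0 in CTR. The 2 lowest of the 12 rats were RSD 33 and RSD 39, and the 2 highest were CTR 24 and CTR 26. The log2 fold change was -0.15 (SE 0.16, 95% interval -0.48 to 0.18, limma adjusted p = 0.842). The interval spans 0.719 to 1.13 times the CTR level. Tsc22d3 (ENSRNOG00000056135) encodes GILZ, a leucine zipper protein that carries part of the anti-inflammatory action of glucocorticoids. It measured 45.1, 62.6 and 75.5 normalised CPM in RSD (lowest, median, highest) and 49.0, 61.1 and 69.7 in CTR. RSD rats held both the lowest value (RSD 34) and the highest (RSD 40), on either side of the controls. Its log2 fold change was -0.01 (SE 0.13, 95% interval -0.29 to 0.26, limma adjusted p = 0.993), the interval running from 0.819 to 1.20 times the CTR level.

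Sgk1 (ENSRNOG00000011815), a kinase that regulates ion channels and transporters, had 13.2, 16.8 and 34.8 normalised CPM in RSD (lowest, median, highest), against 5.79, 13.4 and 17.5 in CTR. RSD 40 and RSD 38 lay above every control, CTR 26 lay below all other rats, and 5 of 6 RSD rats exceeded the CTR median. The log2 fold change was 0.58 (SE 0.24, 95% interval 0.08 to 1.07, limma unadjusted p = 0.0248, adjusted p = 0.517). It was 0.41 without RSD 40 (limma unadjusted p = 0.0992) and 0.38 without CTR 26 (limma unadjusted p = 0.102), and 0.52 without RSD 38 (limma unadjusted p = 0.0552). RSD 40 held 114 Sgk1 reads, and the other RSD rats held 26 to 66.

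Of the transcription factors, Klf9 (ENSRNOG00000014215) was measured with the most reads, 314 to 837 per library. This zinc finger factor, a direct target of the receptor in several tissues, had 159, 186 and 268 normalised CPM in RSD (lowest, median, highest) and 191, 220 and 255 in CTR. RSD 33, RSD 34, RSD 38 and RSD 40 lay below every control, while RSD 35 lay above all of them. The log2 fold change was -0.20 (SE 0.11, 95% interval -0.43 to 0.03, limma adjusted p = 0.664). Without RSD 35 it was -0.29, with limma unadjusted p = 0.0122 and adjusted p = 0.574. Without RSD 33 it was -0.14 (limma unadjusted p = 0.217). The unadjusted p of Klf9 exceeded 0.05 in 24 of 25 alternative fits, all but the one without RSD 35. Klf15 (ENSRNOG00000017808), which governs amino acid use and restrains cardiac growth, had 8.77, 10.8 and 13.6 normalised CPM in RSD and 9.74, 12.9 and 15.7 in CTR. The controls fell into 3 rats near 10 and 3 near 15, and 5 of 6 RSD rats lay below the CTR median. Its log2 fold change was -0.19 (SE 0.19, 95% interval -0.59 to 0.21, limma adjusted p = 0.821).

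Zbtb16 (ENSRNOG00000029980) encodes PLZF, a zinc finger repressor that glucocorticoids induce in many cell types. It measured 23.8, 48.2 and 64.9 normalised CPM in RSD (lowest, median, highest), against 32.2, 42.7 and 56.7 in CTR. RSD 39 and RSD 40 were the 2 lowest rats of all and RSD 35 the highest, so RSD spread more widely (SD 15.1) than CTR (SD 8.13), a difference in spread that was not tested. The log2 fold change was 0.0040 (SE 0.19, 95% interval -0.38 to 0.38, limma adjusted p = 0.997). Cebpd (ENSRNOG00000050869), a factor of the acute phase response, held 9 to 24 reads per library. It had 4.92, 5.75 and 7.13 normalised CPM in RSD and 2.74, 4.75 and 7.12 in CTR, and all 6 RSD rats lay above the CTR median. Its log2 fold change was 0.31 (SE 0.26, 95% interval -0.23 to 0.84, limma adjusted p = 0.778).

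The last pair of targets restrain growth. Cdkn1a (ENSRNOG00000000521) encodes p21, an inhibitor of the cell cycle. It had 10.1, 17.4 and 21.3 normalised CPM in RSD (lowest, median, highest), against 6.82, 10.1 and 15.0 in CTR. RSD 34, RSD 38 and RSD 40 lay above every control and all 6 RSD rats above the CTR median, while RSD 33 lay just above that median. The log2 fold change was 0.62 (SE 0.22, 95% interval 0.17 to 1.08, limma unadjusted p = 0.00862, adjusted p = 0.458), rank 138 of 7511 by p, and it was 0.57 without RSD 40. Ddit4 (ENSRNOG00000057078), or REDD1, an inhibitor of the growth kinase mTORC1, had 9.50, 15.9 and 20.4 normalised CPM in RSD and 9.59, 15.8 and 22.1 in CTR. RSD 33, RSD 39 and CTR 27 lay below 10, CTR 23 was the highest rat of all, and 3 of 6 RSD rats lay above the CTR median. Its log2 fold change was -0.07 (SE 0.22, 95% interval -0.52 to 0.39, limma adjusted p = 0.957).

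Leaving out RSD 40 gave the other members log2 fold changes of 0.16 for Nr3c1, -0.14 for Fkbp5, -0.08 for Tsc22d3, -0.18 for Klf9, -0.19 for Klf15, 0.10 for Zbtb16, 0.33 for Cebpd and -0.15 for Ddit4, and a difference of -1.05 normalised CPM for the second receptor row. None of the 10 tested members passed adjusted p 0.05 without it (limma).

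**Figure D2:**
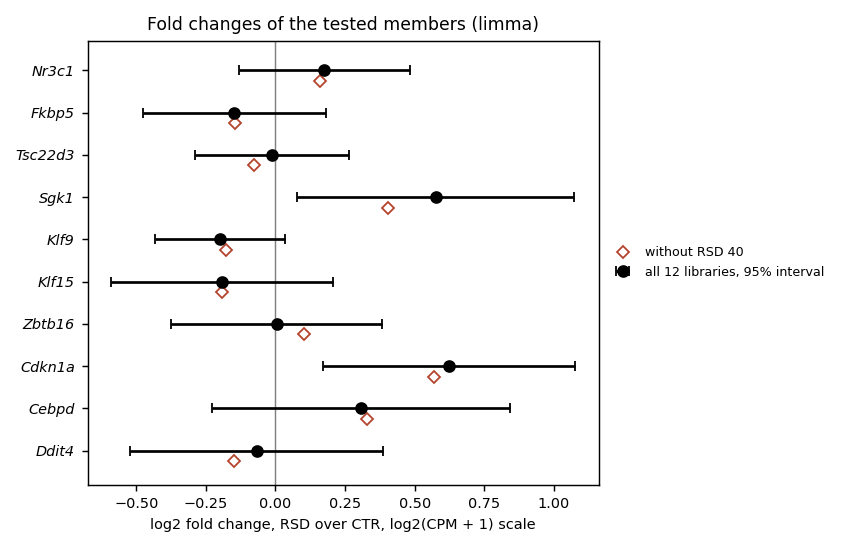
Log2 fold change of each tested member, RSD over CTR (horizontal axis, log2(CPM + 1) scale), with its 95% interval from limma; open diamonds give the value without RSD 40. The intervals of Sgk1 and Cdkn1a lie above 0 before adjustment, at 0.08 to 1.07 and 0.17 to 1.08, and the other 8 include 0.

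How far the rats of a group differed was set against the error of counting alone. The variance within groups was 14.4 times the counting variance for Klf9, 9.51 times for Zbtb16, 7.69 times for Sgk1 and 5.29 times for Nr3c1. For Klf15 and Cebpd it was 1.15 and 1.05 times, so their values differed between rats of a group by little more than counting allows. The first 4 genes varied within groups well beyond what their read numbers give. Tsc22d3, Ddit4, Cdkn1a and Fkbp5 lay between, at 4.48, 4.22, 3.39 and 2.55 times. At equal relative spread this ratio rises with the number of reads, which was largest for Klf9. It therefore does not rank the genes by how far the rats differed.

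RSD 35 stood above the median of the 12 libraries for 10 of 10 members. RSD 38 and CTR 23 did so for 7 each, and CTR 22 and CTR 27 for 2 each. RSD 35 had the lowest TMM factor (0.914), and on CPM as deposited it was above the median for 8 of 10, while RSD 38 (factor 1.12) was above it for 9 and RSD 33 for 1. RSD 33 was also the library with the fewest reads. No labelled batch divides the libraries.

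**Figure D3:**
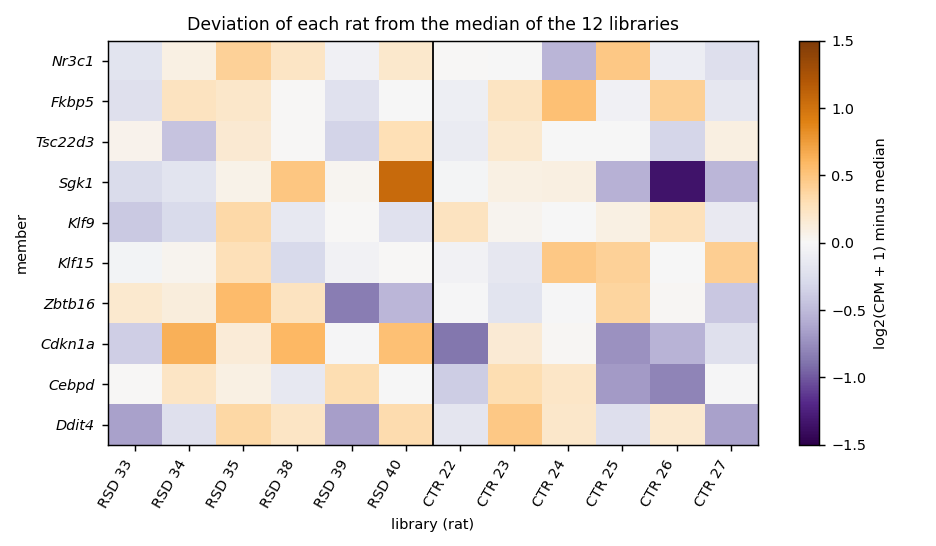
Log2(CPM + 1) of each tested member (rows) minus its median over the 12 libraries, for the RSD rats left of the line and the CTR rats right of it (columns), orange above and purple below. RSD 35 is above the median for 10 of 10 members, and the extremes of Sgk1 lie in RSD 40 and CTR 26.

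Over the 12 libraries, with group means removed, the 9 members with at least 16 reads on average gave 36 pairs. Pearson r was above 0 in 22 of them, with a median of 0.17, and all pairs share the same libraries and depth. Fkbp5 and Ddit4 moved most closely (r = 0.71), then Tsc22d3 and Sgk1 (0.60), Fkbp5 and Cdkn1a (0.56) and Cdkn1a and Ddit4 (0.56). These are the highest of 36 and so are high by selection. Sgk1 also reached 0.47 with Cdkn1a and 0.44 with Ddit4, so the pairs did not fall into separate groups. The receptor was nearest to Klf9 (0.46) and Zbtb16 (0.45), and stood at -0.14 with Fkbp5. The lowest r was -0.26, between Sgk1 and Zbtb16, and Klf15 reached at most 0.17 with any other member. Of the 9 members, Fkbp5, Cdkn1a and Ddit4 had the strongest relation with the share of reads on AY172581.24 (r = -0.64, -0.62 and -0.65). The other 6 ranged from -0.34 to 0.08. That share was unevenly spread between the groups. It was 17.9% to 18.5% in CTR 23 to CTR 26, and 22.7% and 24.2% in CTR 27 and CTR 22. In RSD it was 19.4% in RSD 38 and 22.1% to 25.7% in the other rats. A fit with the share as a covariate therefore cannot fully separate it from the group. In that fit the log2 fold change of Cdkn1a was 0.95 (limma unadjusted p = 0.000713, adjusted p = 0.998). Those of Fkbp5 and Ddit4 were 0.06 and 0.30.

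**Figure D4:**
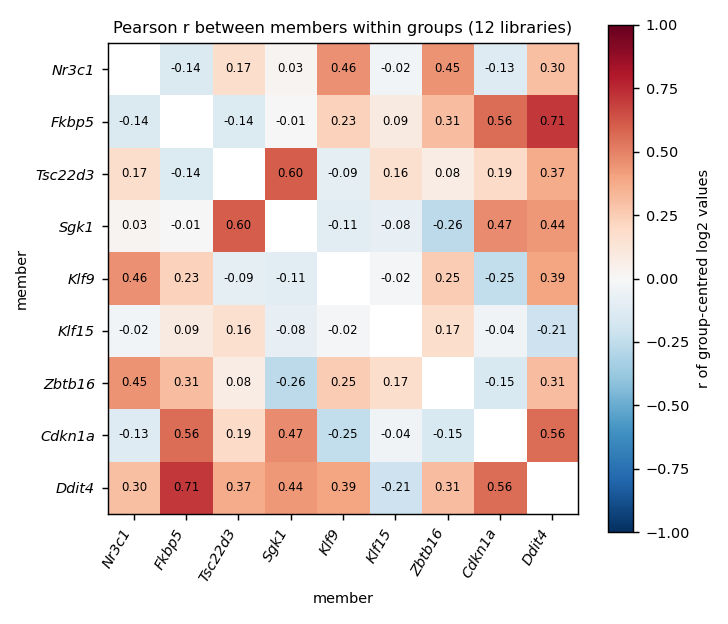
Pearson r between members (rows and columns) of log2(CPM + 1) with group means removed, over 12 libraries; red is positive and blue negative. Pairs among Fkbp5, Cdkn1a and Ddit4 lie at 0.56 to 0.71, and Tsc22d3 with Sgk1 at 0.60. Sgk1 also has 0.47 with Cdkn1a and 0.44 with Ddit4.

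Among the 3415 tested rows with at least 50 reads on average, the rows nearest in pattern were found for each of these 9 members. A best r out of so many is high by selection. For Nr3c1 they were Psma4, a proteasome subunit (r = 0.95), and Dync1i2, a dynein chain (0.88). For Fkbp5 they were Eci1, of fatty acid oxidation (0.92), and Dhdds (0.87). For Cdkn1a they were Maged1 (0.96) and Laptm4a (0.92), and for Sgk1 they were Actr3, of the actin-nucleating Arp2/3 complex (0.83), and Gpr107 (0.80). For Tsc22d3 they were Mrps28 (0.86) and Sptlc1 (0.86), for Klf9 Rpn2 (0.89) and Lsamp (0.87), for Klf15 Zkscan3 (0.95) and Bag1 (0.85), for Zbtb16 Cuedc1 (0.81) and Pgls (0.81), and for Ddit4 Ipo5 (0.89) and Uqcr11 (0.88). No member was among the 2 nearest rows of another, but Sgk1, Klf15, Cdkn1a and Ddit4, under 50 reads on average, were not among the rows searched.

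The wider pathway was described through 7 lists of 118 distinct genes, of which 116 were in the table and gave 74 tested rows. Of those rows 0 passed adjusted p 0.05 (limma), and 2 were higher and 3 lower at an unadjusted p under 0.05, 6.76% beside 8.36% of all rows. Their median log2 fold change was 0.03.

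Partners of the receptor and enzymes of steroid handling had 9 tested rows of 15, with 1 higher and 1 lower at an unadjusted p under 0.05 and a median log2 fold change of -0.04. Dnaja1, an Hsp40 cochaperone, had 15.8, 26.9 and 32.2 normalised CPM in RSD (lowest, median, highest), against 29.8, 35.1 and 38.7 in CTR, and 3 of 6 RSD rats lay below every control (log2 fold change -0.43, SE 0.16, limma adjusted p = 0.485). Stip1, or HOP, which passes clients between Hsp70 and Hsp90, had 40.4, 48.4 and 61.8 in RSD, against 28.3, 37.7 and 46.7 in CTR, with 3 of 6 RSD rats above every control (log2 fold change 0.37, SE 0.14, limma adjusted p = 0.496). Abcb1a, a pump that exports steroids, had a log2 fold change of 0.31, and Bag1 of -0.20. Hsd11b1, which regenerates active corticosterone inside cells, measured 8.11 to 17.0 normalised CPM in RSD and 10.4 to 16.7 in CTR, with a log2 fold change of -0.10 (95% interval -0.51 to 0.32). Genes named here outside the 4 smallest p of a list, Hsd11b1 among them, were chosen after their values were seen. Hsd11b2, which inactivates the hormone, had at most 2 reads in a library. Nr3c2, the mineralocorticoid receptor, which binds the same hormone, had reads in 4 of 6 RSD rats, up to 2.03 normalised CPM, and in 0 of 6 CTR rats, with at most 5 reads in a library, and was not tested.

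Coregulators of the receptor had 9 tested rows of 13, 7 above 0 and 2 below, with a median log2 fold change of 0.10 and none past an unadjusted p of 0.05. Smarca4, a chromatin remodeller, had 0.12, Crebbp, an acetyltransferase, 0.11, Nrip1 0.19 and Med1, of the Mediator, 0.10. The smallest limma adjusted p among them was 0.816. Of the rows under the filter, Ncoa3 had 1.70 to 6.79 normalised CPM in RSD and 0.369 to 2.47 in CTR. In it 5 of 6 RSD rats lay above every control, with at most 21 reads in a library. Ncoa2 had 3 of 6 RSD rats above the CTR median and 3 below. Both were picked after their values were seen and were not tested.

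Other genes known to be induced by glucocorticoids had 22 tested rows of 35, 11 above 0 and 11 below, with a median log2 fold change of 0.01. Nfkbia, the inhibitor of NF-kappa B, was the 1 row higher at an unadjusted p under 0.05, at 184, 220 and 289 normalised CPM in RSD (lowest, median, highest) and 134, 153 and 257 in CTR. The highest control was CTR 22, and 2 of 6 RSD rats exceeded it (log2 fold change 0.48, SE 0.14, limma adjusted p = 0.363). The next control, at 179, lay below all 6 RSD rats. Irs2, an adaptor of the insulin receptor, was the 1 row lower, at 5.57, 7.98 and 12.2 in RSD and 9.75, 12.4 and 25.3 in CTR, with 4 of 6 RSD rats below every control (log2 fold change -0.69, SE 0.24, limma adjusted p = 0.433). Sesn1, a stress-induced brake on mTORC1, had -0.32, with 4 of 6 RSD rats below every control, and Pik3r1, a regulatory subunit of PI3 kinase, -0.20. Trim63 and Fam107a, whose promoters are printed above, had log2 fold changes of -0.11 (95% interval -0.39 to 0.18) and 0.12 (-0.46 to 0.70). Trim63 measured 59.4, 80.3 and 108 normalised CPM in RSD and 67.8, 87.6 and 104 in CTR, with 1 RSD rat above and 2 below every control. Per1, a rapid target, had at most 3 reads in a library and was not tested.

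Of 12 inflammatory genes that glucocorticoids repress, 11 were in the table and 1 was tested. It was Nfkb1, whose log2 fold change stood at 0.22, with SE 0.18 and limma adjusted p = 0.769. Il6 and Tnf had 0 reads in the 12 libraries, and the other untested genes of that list had at most 17 reads in a library, a number that Icam1 reached.

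Relatives of the members had 10 tested rows of 20 and a median log2 fold change of 0.07, none past an unadjusted p of 0.05. Tsc22d1, of the family of Tsc22d3, had -0.33 (SE 0.17, limma adjusted p = 0.631), Klf4 0.29, Klf3 0.14 and Fkbp4, the Hsp90 cochaperone that helps the receptor into the nucleus, 0.12. Branched-chain amino acid breakdown, a pathway under Klf15, gave with Kcnip2 14 tested rows of 15, 7 above 0 and 7 below, with a median of -0.03. Bcat2, the mitochondrial transaminase that opens the pathway and a known Klf15 target, had 16.8, 19.8 and 23.1 normalised CPM in RSD and 15.5, 34.5 and 47.8 in CTR (log2 fold change -0.61, SE 0.20, limma unadjusted p = 0.00441, adjusted p = 0.433). The RSD rats lay close together, all 6 below the CTR median and above the lowest control, CTR 22. Hibadh had -0.24, Pccb 0.22 and Mccc2 0.33, and Kcnip2, a potassium channel subunit under Klf15, had 0 reads. So did Hsp90aa1, of the receptor's partners. Whether such transcripts were absent or were not counted was not tested.

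Regulators of mTORC1 beside Ddit4 had 11 tested rows of 12, a median log2 fold change of 0.03 and none past an unadjusted p of 0.05. Sesn1 led them (-0.32), with Rptor at 0.26, Akt1s1 at 0.21 and Deptor at 0.25.

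**Figure D5:**
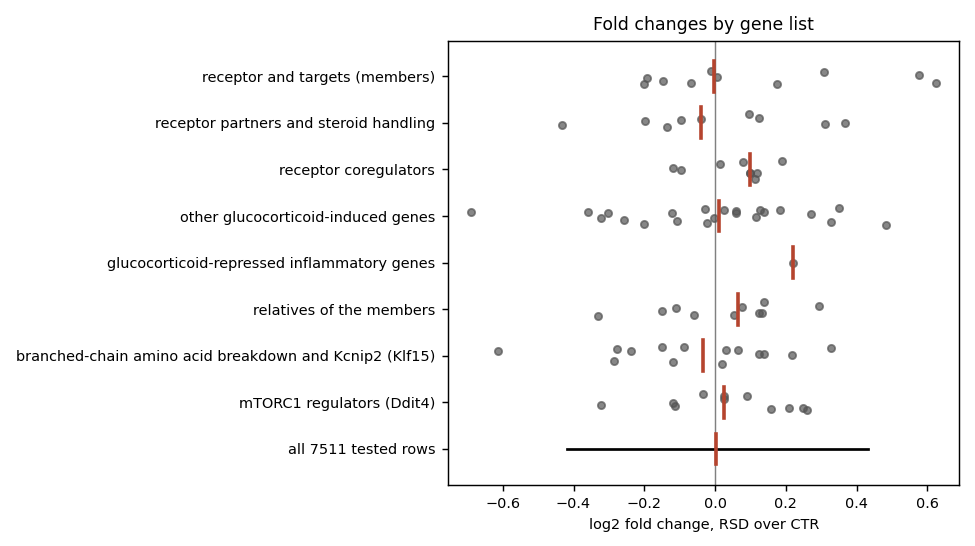
Log2 fold change, RSD over CTR (horizontal axis), of each tested row of the members and of the 7 lists (points), with the median of each (red bar). The black line spans the 5th to 95th percentile of all 7511 rows, -0.42 to 0.43, and the list medians lie between -0.04 and 0.22, the last being that of 1 gene.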

How the data were processed

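Per the labels' protocols, 3' end libraries (QuantSeq forward kit) were made from 100 ng of total RNA of each left ventricle. The authors deposited 1 table in CPM. Tools listed in the submitters' processing notes are STAR 2.6.0a, HTSeq 0.9.1, bcl2fastq and DESeq2, with build rn6 and no roles. The annotation release and strand setting are not stated there.

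In every library 100% of the values above 0 were whole multiples of 1 read within 0.1 read, which gave the reads behind each value. CPM was divided by TMM factors (0.914 to 1.12) and tested with limma 3.58.1 (R 4.3.3) on log2(CPM + 1), with an intensity trend, two-sided, with Benjamini-Hochberg adjustment. Fold changes on this scale understate those of low genes. The filterByExpr function of edgeR 4.0.16 (minimum count 10 on the recovered reads) kept 7511 rows. edgeR and DESeq2 1.42.0 on the recovered reads called 2 rows each. The row below the filter got an exact permutation test (scipy 1.17.1). Of the models, only the main limma fit was run on simulated counts. P-values measure the spread between rats, 1 library each, and counting error holds for reads without molecular identifiers.

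The members and lists were chosen with earlier results of these data known. Named were all members, up to 4 tested genes per list by smallest p, and for members with at least 16 reads on average the 2 most alike rows with at least 50. A planned list of genes is not reported here. No pairing was used. Alternatives were other factors, totals, pseudocounts, filters, tests, a mitochondrial covariate and leaving out each library. Promoter sequences are RefSeq's.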

Additional observations from a re-analysis of the deposited data

Results flagged for a closer look

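In each of 92 pairs of a group and a result, the highest and the lowest library were set against the other 5. One stood far from them in 8 pairs, each time the highest. For normally distributed values chance alone gives about 1 pair in 20, counting both ends. Whether these values are so distributed was not tested. Each value is the distance to the next library divided by the whole range of the 6. No member of the receptor and target set was among them. In RSD the gap was 0.846 for Smarca4 in RSD 35 (222 normalised CPM, the next 157), 0.63 for Nfkb1 and 0.634 for Klf4 in RSD 33 (32.4 and 66.4, the next 23.7 and 41.6), and 0.664 for Deptor in RSD 40 (6.11, the next 4.08). In CTR it was 0.633 for Nfkbia in CTR 22 (257, the next 179). For summed markers it was 0.652 for adipocytes in RSD 33 (2.03, the next 0.705, with Plin1 and Lep at 0), 0.635 for skeletal muscle in RSD 38 (8.78, the next 4.56, with Actn3 at 0), and 0.779 for macrophages in CTR 24 (98.9, the next 68.1).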

How the results depend on the processing

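The count of members past adjusted p 0.05 was 0 under all 25 alternatives, where the smallest adjusted p was 0.24. Over all genes the main count of 2 was 0 with no filter on low reads and with the mitochondrial share as a covariate, 1 with at least 50 reads in 6 libraries, and 0 to 41 when 1 library was left out (41 without CTR 22; 0 without CTR 23, CTR 24, CTR 27, RSD 34 or RSD 40). Of 245 fold changes of members under an alternative, 21 had the opposite sign. Zbtb16 was -0.037 on CPM as deposited, -0.0059 with no filter and -0.0045 with the authors' marks as filter. Tsc22d3 was 2.7e-05 with edgeR and 0.0013 with DESeq2, and Ddit4 0.042 with limma-voom. The mitochondrial covariate, unevenly spread between the groups, gave 0.057 for Fkbp5 and 0.30 for Ddit4. Leaving out 1 library gave -0.12 to 0.16 for Zbtb16, -0.077 to 0.065 for Tsc22d3 and -0.19 to 0.044 for Ddit4. The cause was not tested. Cdkn1a ranged from 0.52 to 0.95 and stayed under an unadjusted p of 0.05 in all 24 alternatives that gave it a value; Sgk1 ranged from 0.38 to 0.73 and exceeded that p in 3 (without RSD 38, RSD 40 or CTR 26). No paired analysis was possible because the groups share no replicate numbers. Depth limits Cebpd and Klf15, whose spread was near counting error.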

Other observations

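Mt1, Mt2A and Pdk4, glucocorticoid-induced genes under the filter on low reads, were picked after their values were seen and not tested. Mt1, a metallothionein, had 2.12, 2.64 and 4.08 normalised CPM in RSD (lowest, median, highest), against 1.86, 4.11 and 15.3 in CTR. Its highest value was that of CTR 24, and all 6 RSD rats lay below the CTR median. Mt2A, a second metallothionein, had 0, 1.49 and 2.49 in RSD, against 1.71, 3.22 and 5.25 in CTR. It had at most 14 reads in a library, and 4 of 6 RSD rats lay below every control. Pdk4, which holds back glucose oxidation, had 1.52, 2.91 and 4.92 in RSD, against 1.22, 3.31 and 9.30 in CTR. Other untested genes of that list leaned the other way, Errfi1 and Rasd1 among them, likewise picked after their values were seen. Their medians were 3.06 and 0.966 in RSD, against 2.27 and 0.304 in CTR. For each, 5 of 6 RSD rats lay above the CTR median.

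Other cell types were followed through summed markers, in normalised CPM. Endothelial markers summed to 143 to 172 in RSD and 115 to 178 in CTR, fibroblast markers to 532 to 588 in RSD and 456 to 629 in CTR, and smooth muscle and pericyte markers to 62.3 to 103 in RSD and 72.2 to 118 in CTR. Red blood cell markers reached 10477 in RSD 34 and at most 4609 in CTR. Atrial markers ranged from 59.8 to 433 in RSD, highest in RSD 38, and from 93.8 to 218 in CTR, and Schwann cell markers from 0.309 to 4.42 in RSD and 2.13 to 5.88 in CTR.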
